A study of Camponotus fellah with 299 samples.

Results

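The 100 gene models described here had the largest ratios between colony medians in the brains of Camponotus fellah, a carpenter ant. They were chosen by their measured values. For each gene model the median level per colony was taken in CPM, counts per 1e+06 counted reads, and 0.1 CPM was added. Of 14664 gene models, 9456 had a highest colony median of at least 1 CPM, and the 100 with the largest ratio of the highest to the lowest colony median were taken. Brains of 299 ants were sequenced one by one, 90 of colony 2 and 209 of colonies 3 and 4 in nearly equal numbers. The colonies had been watched for a week before the ants were killed, and no colony had been treated. Ages ran from 1 to 33 months in colony 2, 1 to 45 months in colony 3 and 1 to 46 months in colony 4. The files do not pair the identifiers with gene names. Each identifier gives a contig, an assembled stretch of genome, and a running number on it, so neighbours can be read from the name.

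The workers of an ant colony are daughters of its queen or queens, and so share much of their ancestry. They also share a nest, food and microbes. A brain sample mixes many kinds of neurons and glia, and a transcript level averages over all of them. Workers usually begin with brood care inside the nest and take up foraging when older. In these samples, fewer cells of a type and less RNA per cell cannot be told apart. Each colony was sampled once, so ancestry, nest conditions and any handling that went with the colony cannot be told apart either.

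Depth per library lay between 19.8 and 73.2 M counted reads (M, 1e+06 reads), and its median per colony between 37.2 and 41.3 M. A level of 1 CPM or more is called on here and a level below 0.1 CPM off; 0.1 CPM stood for 2.0 reads in the shallowest library and 7.3 in the deepest. A library labelled as colony 3, ant 007, stood apart. Over the 100 members its log2 levels lay on average 0.792 from the medians of colony 4, and 2.36 from those of colony 3. The other ants of colony 3 lay between 0.410 and 1.14 from the medians of their own colony. Over the next 200 gene models by the same ratio, ant 007 was again nearest to colony 4, as were 2 ants of colony 2 and, narrowly, 1 other ant of colony 3. Whether ant 007 carries a wrong label was not tested. The results found to move with it are given with and without it, except the slope counts of members off in a colony.

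The label on or off held for a minority of the members. In 22 of the 100, on 15 contigs, the lowest colony median was below 0.1 CPM, and their ratios ran from 7.63 to 429. The other 78 had a median of at least 0.1 CPM in every colony, and their ratios ran from 3.38 to 116.6 with a median of 4.19. Their lowest medians ran from 0.118 to 106.6 CPM, so some lay between off and on. Of all members, 4 had a ratio of at least 100, 17 of at least 30, 27 of at least 10 and 51 of at least 5. At the edge of the choice, evm.model.ctg59.129 and evm.model.ctg28.108 stood just inside at 3.38 each, and evm.model.ctg17.73 just outside at 3.36. These ratios chose the members and are given as a description, with no test.

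Members were grouped by the colony whose median was farther from the middle one on the log2 scale. Colony 4 stood apart most often, low in 39 members and high in 16. Colony 3 stood apart low in 18 and high in 9, and colony 2 high in 10 and low in 8. The groups differed in kind. Colony 4 low held no member that was off in a colony, and its median ratio was 3.95. Colony 2 low held 5 such members of 8, colony 3 low 7 of 18, colony 3 high 4 of 9, colony 4 high 4 of 16 and colony 2 high 2 of 10. In 14 members the larger of the gaps was under 2 times the smaller, so that the 3 colonies formed steps.

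**Figure D1:**
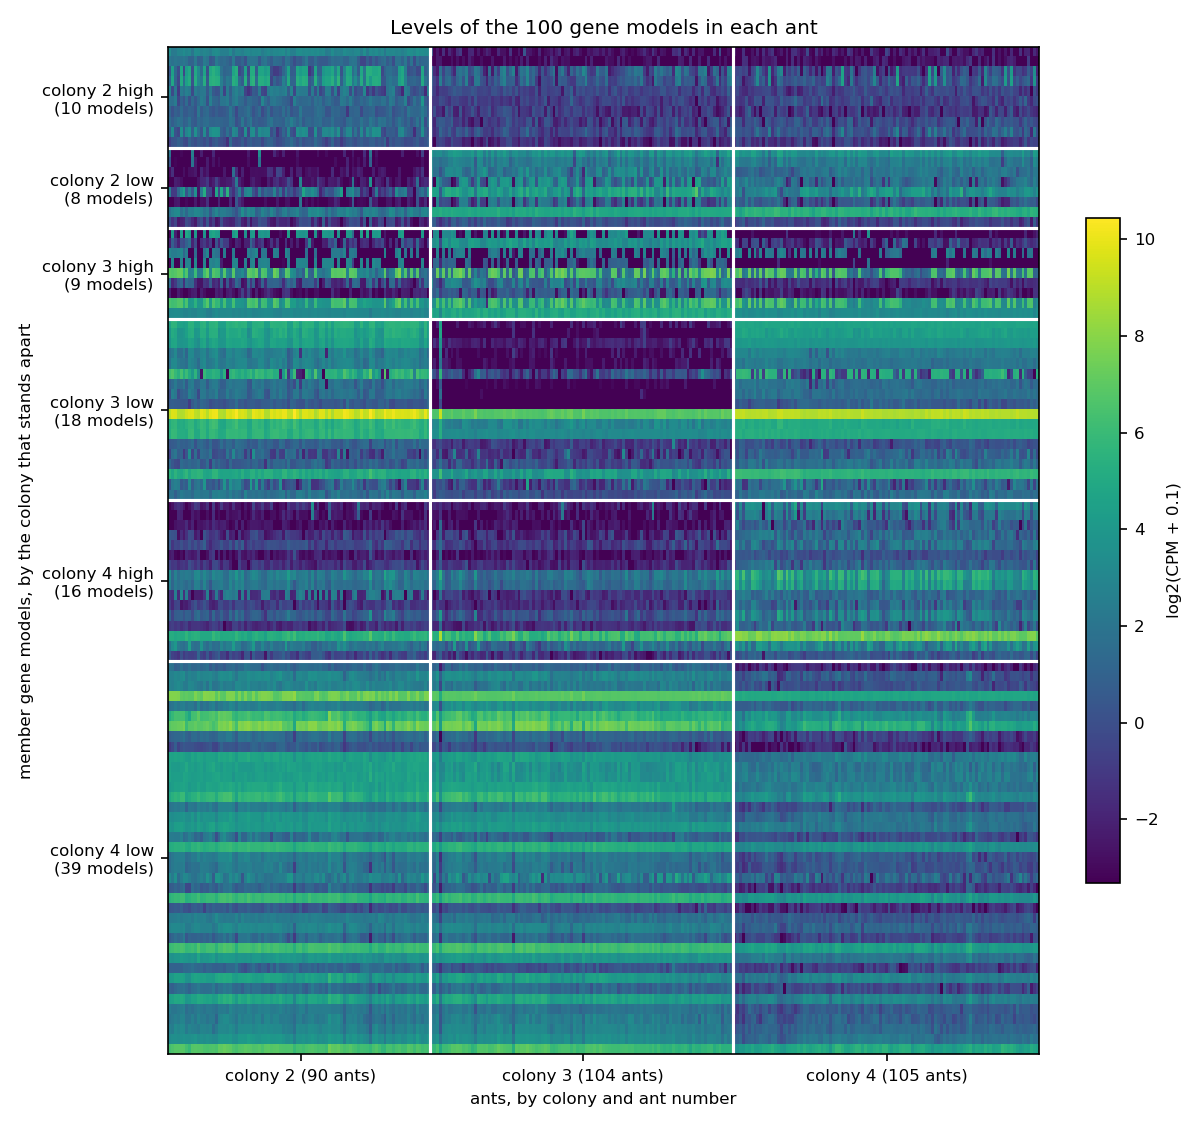
Levels of the 100 members as log2(CPM + 0.1), with 1 row per gene model and 1 column per ant. Rows are grouped by the colony that stands apart and the direction, and ordered by ratio inside each group. The dark blocks are the 22 members that are off in a colony, and the single bright stripe at the left of colony 3 is ant 007. The striped rows have high and low ants side by side in the same colony.

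The largest ratios belonged to members that were missing from colony 3. evm.model.ctg129.26 had a lowest, median and highest value of 0, 0 and 24.7 CPM in colony 3, against 20.2, 42.8 and 54.1 CPM in colony 2 and 19.5, 25.3 and 31.5 CPM in colony 4. The colony 3 ant at 24.7 CPM was ant 007, and the next highest had 0.554 CPM. Without ant 007, all ants of colony 3 lay below all ants of the other colonies. evm.model.ctg129.24 had 0, 0 and 28.4 CPM in colony 3, against 9.98, 30.8 and 49.8 CPM in colony 2 and 12.7, 21.2 and 35.8 CPM in colony 4. Ant 007 was again the only ant of colony 3 that was on, and 94 of the others held no read.

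In the other direction, evm.model.ctg244.6 was highest in colony 3, with 0, 7.04 and 28.7 CPM, against 0, 0.0232 and 27.8 CPM in colony 2 and 0, 0 and 14.8 CPM in colony 4. Its ants did not form a level per colony. It was on in 54 ants of colony 3 (51.9%), in 41 of colony 2 (45.6%) and in 2 of colony 4, so its medians for colonies 2 and 3 fell on either side of nearly even splits. evm.model.ctg47.8 had 0.807, 15.1 and 33.7 CPM in colony 3, against 0, 0.198 and 7.08 CPM in colony 2 and 0, 0.294 and 4.00 CPM in colony 4. It was on in all but 1 of the ants of colony 3, in 12 ants of colony 2 and in 13 of colony 4, so the colonies overlapped. With 1 ant left out on each side, colony 3 no longer overlapped the others for evm.model.ctg47.8.

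Colony 2 stood apart most fully in evm.model.ctg4.8, with 4.16, 8.37 and 12.5 CPM, against 0, 0.0558 and 1.24 CPM in colony 3 and 0, 0.0673 and 0.887 CPM in colony 4. No ant of colony 2 overlapped any ant of the others. evm.model.ctg697.2 had 0.641, 2.36 and 5.11 CPM in colony 2, against 0, 0 and 0.251 CPM in colony 3 and 0, 0.0548 and 0.441 CPM in colony 4, and did not overlap either. evm.model.ctg536.4 was off in colony 2, with 0, 0 and 11.3 CPM, against 1.46, 12.2 and 28.5 CPM in colony 3 and 1.63, 12.3 and 29.1 CPM in colony 4. Its neighbour evm.model.ctg536.3 had 0, 0 and 4.03 CPM in colony 2, against 0.247, 5.66 and 10.7 CPM in colony 3 and 0.473, 4.93 and 12.9 CPM in colony 4. The same 4 ants of colony 2 were on for both neighbours, and 69 and 72 of the 90 had no read of them.

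Colony 4 was high in evm.model.ctg211.6, with 0, 9.08 and 34.2 CPM, against 0, 0.102 and 12.4 CPM in colony 2 and 0, 0.0954 and 10.4 CPM in colony 3. Its neighbour evm.model.ctg211.7 had 0, 4.46 and 17.0 CPM in colony 4, against 0, 0.0451 and 6.11 CPM in colony 2 and 0, 0.0384 and 4.88 CPM in colony 3. Both were on in the same 2 ants of colony 3, numbers 064 and 097, and each was on in 3 ants of colony 2. Colony 4 was low in evm.model.ctg140.7, with 0, 0.193 and 0.904 CPM, against 1.01, 2.49 and 4.58 CPM in colony 2 and 0.101, 2.03 and 4.46 CPM in colony 3. evm.model.ctg1.395 had 0.161, 1.15 and 9.59 CPM in colony 4, against 1.96, 7.95 and 15.1 CPM in colony 2 and 1.72, 8.21 and 15.9 CPM in colony 3. Both overlapped the other colonies. With 1 ant left out on each side, colony 4 no longer overlapped them for evm.model.ctg140.7 but still did for evm.model.ctg1.395. The highest ant of colony 4 for evm.model.ctg1.395 lay above the medians of the other colonies.

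**Figure D2:**
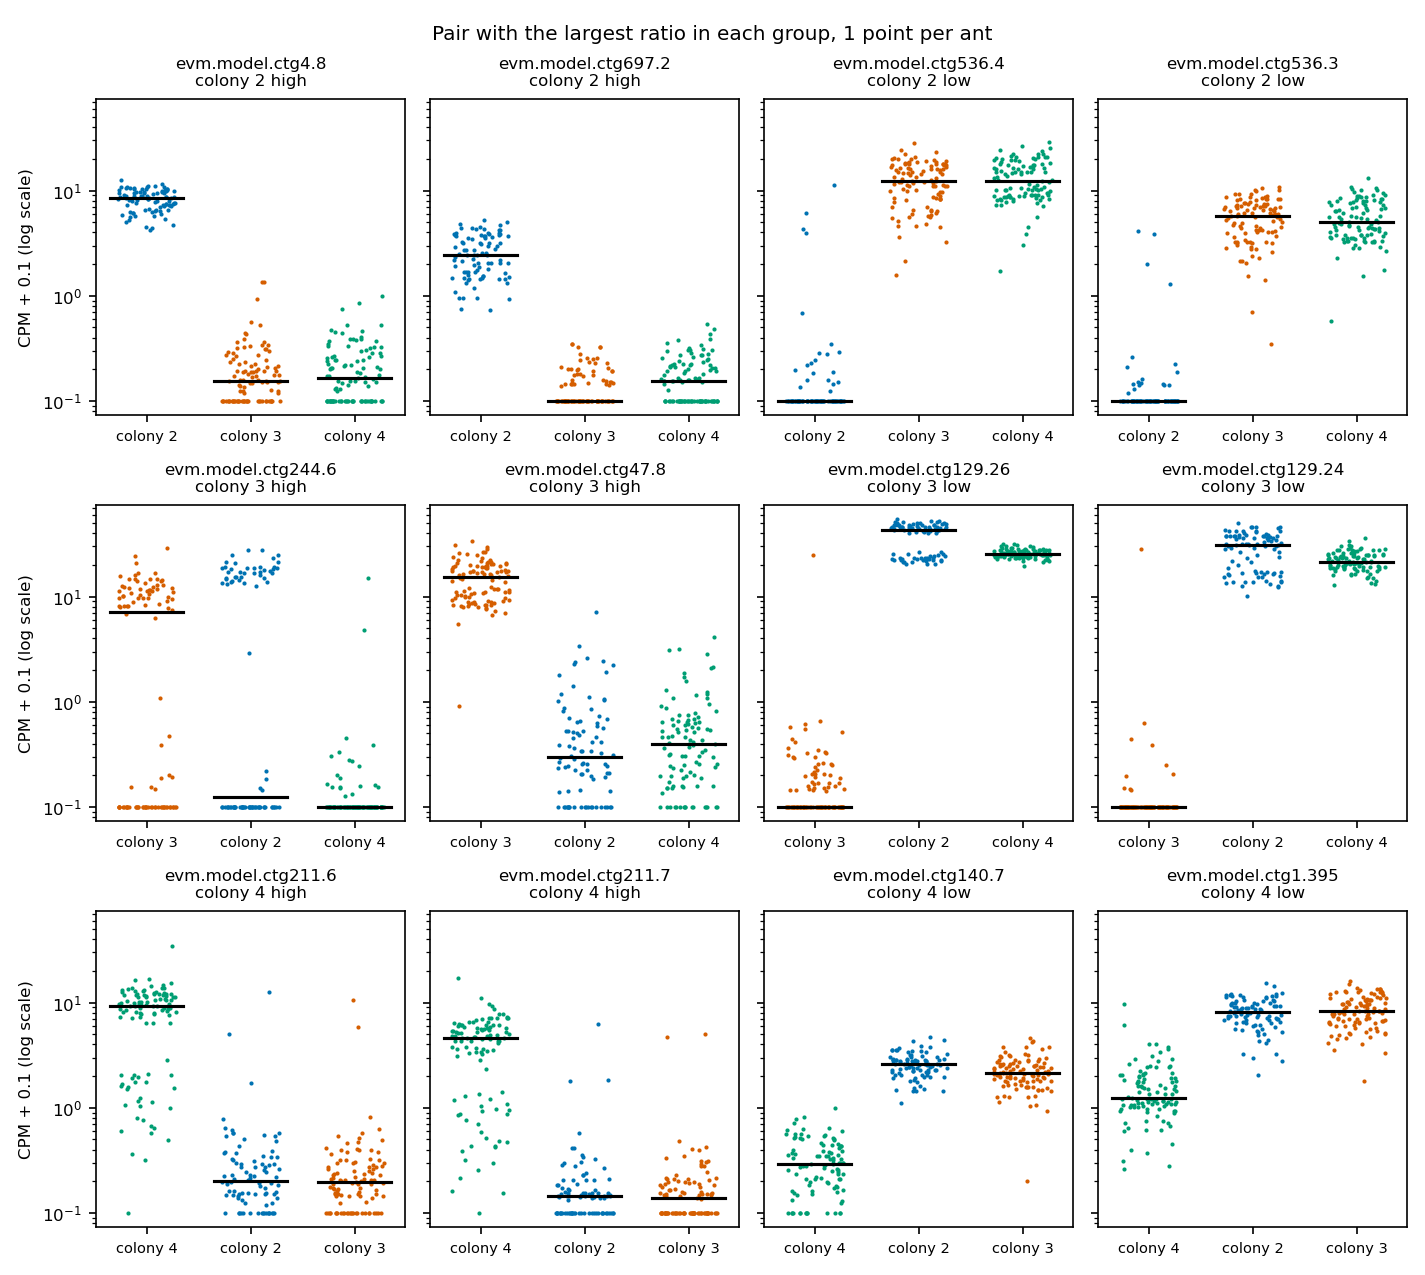
Levels of the pair with the largest ratio in each group, 1 point per ant, on a log axis in CPM + 0.1, with the colony that stands apart at the left and a bar at each colony median. Separate bands inside a colony can be seen for evm.model.ctg244.6 in colonies 3 and 2 and for evm.model.ctg129.26 in colony 2.

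A complete parting of ants by colony was rare. In 3 members no ant of the colony that stands apart overlapped the rest, 2 with colony 2 high and 1 with colony 2 low. Over all 9456 gene models kept by the level rule the same held for 5, or 0.0529%. This count rested on ant 007. Without it, 14 members parted the colonies fully, 9 of them with colony 3 low, against 20 of the 9456, or 0.212%. The rule used this contrast, so nothing is read from these shares. The 22 members were off in 30 pairs of gene model and colony, and in 23 of these at least 1 ant was on. In 8 of the 23 that ant was ant 007 alone, and without it 15 of the 30 pairs had an on ant.

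Members gathered on contigs. Of the 100, 26 had another member as a direct neighbour on the contig, while 80 of the 9356 other gene models kept by the level rule, or 0.855%, had a member as neighbour. There were 16 adjacent pairs, and in 14 of them both members had the same colony standing apart in the same direction. Both exceptions, on contigs ctg697 and ctg236, joined members of different groups. The 80 flanking gene models that passed the level rule without being members had a median ratio of 1.19, against 1.12 over all kept gene models, and 13 of the 80 (16.3%) had a ratio of at least 2, against 3.37% of all.

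Contig ctg129 carried the most members. Its last 6 gene models, numbers 23 to 28 of 28, were all members with colony 3 low. Their medians in colony 3 were 0 for 4 of them, 0.118 CPM for number 27 and 9.90 CPM for number 28, against 3.52 to 54.98 CPM in colony 2 and 3.22 to 35.3 CPM in colony 4. The gene model before the run, evm.model.ctg129.22, had medians of 48.2 CPM in colony 3, against 77.8 CPM in colony 2 and 76.5 CPM in colony 4, a ratio of 1.61. The next one out, number 21, had a ratio of 1.48 with colony 4 the lowest. The step thus lay between numbers 22 and 23, and it was smaller at number 28.

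Contig ctg460, with 5 gene models in all, carried members at numbers 1 to 4, each with colony 4 high. evm.model.ctg460.2, named for its contig, had 3.90, 26.0 and 122.6 CPM in colony 4, against 2.13, 5.33 and 27.5 CPM in colony 2 and 1.05, 3.77 and 45.6 CPM in colony 3. The ratios of the 4 members ran from 5.38 to 7.67. The fifth gene model had medians of 0.173 to 0.201 CPM in the 3 colonies and did not pass the level rule. Further adjacent pairs of 1 pattern lay on ctg536 and ctg164 (colony 2 low), ctg211 and ctg414 (colony 4 high), ctg137 (colony 4 low) and ctg320 (colony 2 high).

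**Figure D3:**
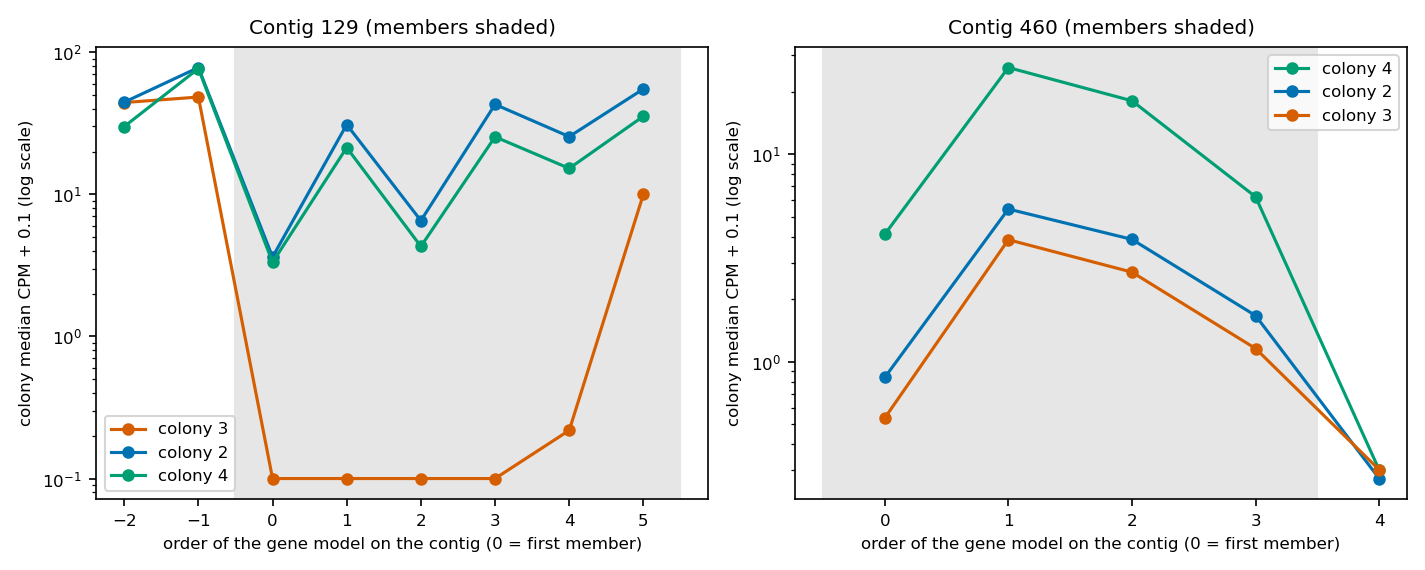
Colony medians in CPM + 0.1 (log axis) along the ends of contigs ctg129 and ctg460, in the order of the gene models, with 0 at the first member and members shaded. On ctg129 the median of colony 3 is 0 at the first 4 members, and on ctg460 colony 4 lies above the other colonies at the 4 members and not at the last gene model.

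Many members lay on short contigs. Of the 100, 26% lay on contigs with up to 10 gene models, against 3.56% of all kept gene models. Among the 22 members that were off in a colony this share was 45.5%, and among the 16 with colony 4 high it was 62.5%. None of the 39 with colony 4 low lay on such a contig. Contigs differ in assembly as well as in content, and the part of the assembly in these shares was not tested.

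Inside colonies, many members fell into separate high and low ants. A search made after the values had been seen counted a gene model as having 2 levels in a colony when the sorted ants held a gap of at least 0.5 in log2(CPM + 0.1), at least 20% of ants lay on each side, and the lowest ant above the gap had at least 0.5 CPM. This held for 17 members in 27 cases of gene model and colony. It held for 13%, 8% and 6% of members in colonies 2, 3 and 4, against 0.201%, 0.148% and 0.190% of all kept gene models. With a gap of at least 1, 8 members in 15 cases remained. The rule favours such gene models, since a median near an even split falls on either side, so these shares are a description. The gene models of the next 4 paragraphs that are outside the naming rule were chosen after their values were seen.

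A set of 3 members on different contigs parted the same ants in all colonies. evm.model.ctg296.16 was at 1.68 to 13.4 CPM in 149 of the 299 ants and at 0 to 0.355 CPM in the other 150, with no ant between. evm.model.ctg717.2 was at 40.9 to 225 CPM in the same 149 ants and at 0.822 to 12.0 CPM in the same 150. evm.model.ctg697.1 was at 34.5 to 158.5 CPM in these 149 and at 0.225 to 26.1 CPM in these 150. The high ants numbered 41 in colony 2, 57 in colony 3 and 51 in colony 4 (45.6%, 54.8% and 48.6% of its ants). Among the other 14663 gene models, searched colony by colony, none but these 3 parted the ants in this way in any colony. evm.model.ctg697.2, the neighbour of evm.model.ctg697.1, did not part them.

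A second set of ants was parted by contigs ctg244 and ctg250. In colony 2, evm.model.ctg244.8 was at 6.25 to 9.73 CPM in 40 ants and at 0 to 0.546 CPM in 50. On the same contig, evm.model.ctg244.6 was high in 41 ants, which held all 40. The gene model between them, evm.model.ctg244.7, is not a member and was on in 40 of these 41. On ctg250, evm.model.ctg250.9 was high in the same 40 ants as evm.model.ctg244.8. Also on ctg250, evm.model.ctg250.7 was at 16.7 to 49.3 CPM in 41 ants, which held these 40 as well. In colony 3, evm.model.ctg244.6 and evm.model.ctg244.8 were high in the same 54 ants, at 6.18 to 28.7 CPM and 0.984 to 3.48 CPM. Contig ctg250 had no gap of this size in colony 3, where evm.model.ctg250.7 had a lowest, median and highest value of 0.0459, 1.24 and 7.46 CPM. The states of the 2 contigs did not match there as in colony 2. The member evm.model.ctg250.5 was on in 45 ants of colony 3 that were off for evm.model.ctg244.6. It was off in 9 ants that were on for evm.model.ctg244.6. Both were on in 15 ants and both off in 0, and in 35 at least 1 lay between on and off. In colony 4, evm.model.ctg244.6 was on in 2 ants and evm.model.ctg244.8 in 1 of these.

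These ants were not those of the other set. In colony 2, evm.model.ctg244.8 and evm.model.ctg717.2 gave the same side in 54.4% of ants, and over all pairs of 2-level members on different contigs in the same colony the median was 51.8%. Of those pairs 10 agreed in every ant, 9 within the set of 3 and 1 between ctg244 and ctg250. The 7 pairs on the same contig agreed in 98.9% to 100% of ants. evm.model.ctg211.6 and evm.model.ctg211.7 were high in the same 75 ants of colony 4 (71.4%). evm.model.ctg232.11 was at 34.2 to 71.9 CPM in 56 ants of colony 4 and at 0 to 2.27 CPM in the other 49. No other gene model parted these ants. In colony 2 it was high in 67 ants, which held 40 of the 41 high ants of the set of 3. Its side was that of evm.model.ctg296.16 in 68.9% of the ants of colony 2 and in 51.4% of those of colony 4.

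The run on ctg129 had 2 levels in colony 2 as well. evm.model.ctg129.26 was at 39.8 to 54.1 CPM in 58 of the 90 ants and at 20.2 to 26.3 CPM in the other 32. The lower band overlapped the range of colony 4, 19.5 to 31.5 CPM, and the upper band lay above it. Members 24, 27 and 28 of the contig parted the same 58 and 32 ants with no overlap, as did evm.model.ctg129.22 outside the run, at 71.3 to 108.1 CPM and 55.8 to 70.5 CPM. On another contig, evm.model.ctg670.1 and the member evm.model.ctg670.2 also parted these ants. evm.model.ctg670.2 had colony 3 low, with 89.6, 106.6 and 635 CPM, against 409, 769 and 1394 CPM in colony 2 and 400, 480 and 679 CPM in colony 4. The levels of members 23 and 25 overlapped between these ants.

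**Figure D4:**
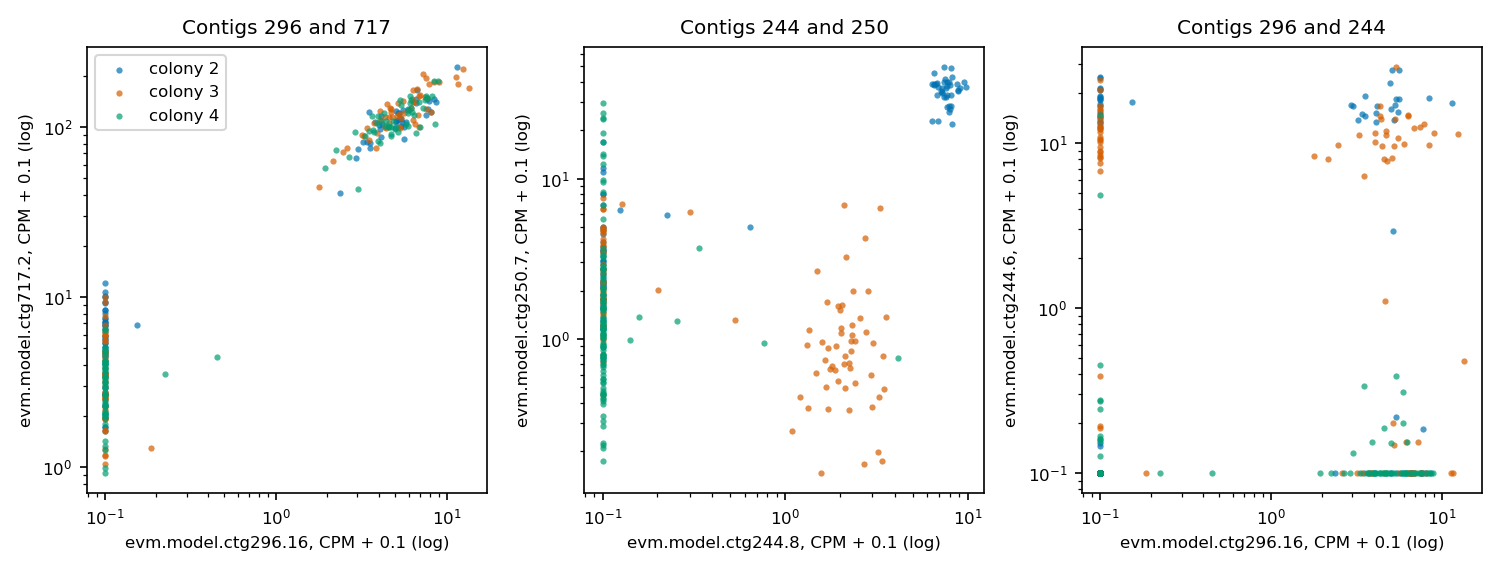
Levels of pairs of members on different contigs in CPM + 0.1 (log axes), 1 point per ant, coloured by colony. The left plot has a high and a low cloud with no ant between, of 149 and 150 ants. The middle plot has a separate cloud of 40 colony 2 ants high for both gene models, and in the right plot the colony 2 and 3 ants occupy all 4 corners.

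Members varied more among ants than other gene models. Over members with a colony median of at least 1 CPM, the ratio of the upper to the lower quartile had a median of 1.63, 1.70 and 1.78 in colonies 2, 3 and 4. Over all kept gene models it was 1.18, 1.17 and 1.20. The sets were not matched for level, and the rule favours gene models with 2 levels, so these ratios are a description. The wide spread limits the slopes that follow.

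The rule used colony medians and no age, maturity or body length, so the relation of members to these labels inside colonies was tested. The labels give a maturity value from 0 to 1, age and body length for 289 ants. Maturity is read here as the social network position in the title of the series. It was turned round in colony 4, where the deposited value falls with age and rises with brood care, and is called oriented maturity. Slopes are log2 changes inside colonies, per unit of maturity, per 12 months of age and per unit of body length as deposited, whose unit is not given. An edgeR quasi-likelihood adjusted p below 0.05 over all 10457 gene models tested is taken as called. With 3 colonies, the p-values reflect the spread among these ants and not among colonies in general.

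More of the called members rose than fell with maturity, age and body length. For maturity, 41 of 100 members were called, 33 rising and 8 falling, where 45.6% of all gene models were called, 23.4% rising and 22.2% falling. For age, 43 members were called, 32 rising and 11 falling, where 42.6% were called in all, 21.7% rising and 20.9% falling. For body length, 10 members were called, 9 rising and 1 falling, where 29.0% were called in all, 15.0% rising and 14.0% falling. Without ant 007, 31 members rose and 6 fell with maturity, where 45.6% of all were called. Without it 32 rose and 7 fell with age, where 42.3% of all were called, and 10 rose and 3 fell with body length, where 28.9% of all were called. Maturity and age go together in these ants. With age in the model 9 members were called for maturity, where 18.6% of all were called. With maturity in the model 6 members were called for age, where 7.97% of all were called. With all labelled ants and 1 label in the model, the 22 members off in a colony held 2 rising and 2 falling with maturity. They held 3 rising and 6 falling with age. The counts of these 22 were not made again without ant 007, though at least evm.model.ctg129.24 lost its call for maturity then. Over all gene models, 45.6% were called for maturity and 42.6% for age.

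Most of the rising members belonged to a single group. Its counts are not fully independent of the choice, since the colonies differed in their shares of mature ants. Of the 39 members with colony 4 low, 24 rose with maturity and none fell, and 22 rose with age and none fell. Without ant 007 these counts of rising members were 23 and 22, with none falling. Without colony 4 they were 14 and 13, where 17.9% and 16.0% of all gene models rose. With ant number as a replicate block, fitted by limma-voom, they were 12 and 16, where 18.3% and 16.5% of all rose. The median slope of the 39 on maturity was 0.29 log2, against 0.00 over all gene models. The other 61 members held 9 rising and 8 falling with maturity. With age in the model, 7 of the 39 rose with maturity, where 9.83% of all rose. With maturity in the model, 1 of the 39 rose with age, where 4.54% of all rose. In colonies 2, 3 and 4 fitted alone, 32 of 39, 33 of 39 and 32 of 36 tested members of this group had a positive slope. Of these tested members 6, 8 and 20 were called rising, where 12.9%, 14.7% and 16.7% of all gene models rose. Called falling were 1, 0 and 1. These fits of single colonies called 16 of 80 members in colony 2, 13 of 73 in colony 3 and 33 of 87 in colony 4, where 25.3%, 28.1% and 34.9% of all gene models tested were called.

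The 39 members also rose and fell together among ants. The median Spearman correlation over pairs of them was 0.40, 0.42 and 0.23 inside colonies 2, 3 and 4 (at least 90 ants each), against 0.01 in each colony over pairs of all kept gene models. In the other 5 groups it lay between -0.02 and 0.11. Each correlation shares libraries and depth between its members, and this one is a description. The part of depth in it was not tested. Body length called 1 of the 39.

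**Figure D5:**
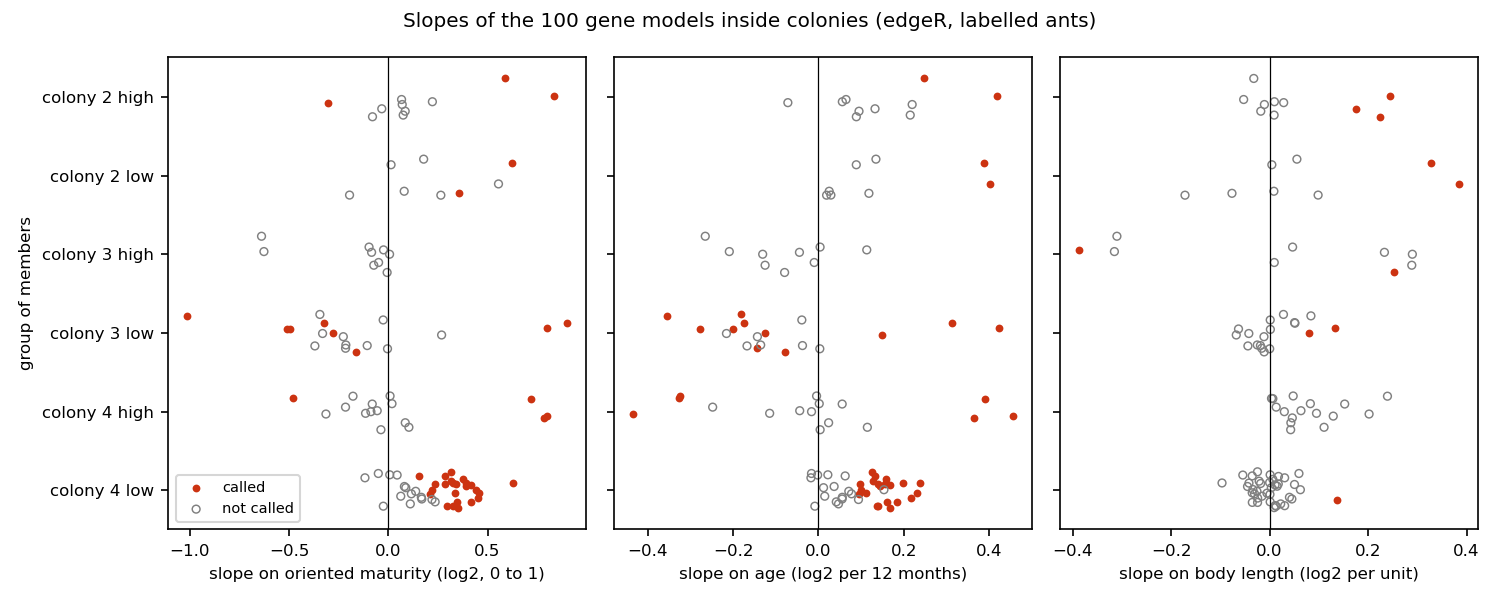
Slopes of the 100 members on oriented maturity, age and body length inside colonies (289 ants), by group, with called members filled. In the lowest row, colony 4 low, 24 filled points lie right of 0 for maturity and 22 for age.

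Among the called slopes, evm.model.ctg59.129 rose most with maturity, by 0.90 ± 0.07 log2 (SE; edgeR adjusted p = 1.18e-29). Its lowest, median and highest value at the high end of maturity (above 0.75) was 1.77, 4.93 and 8.29 CPM in colony 2, against 1.07, 2.75 and 5.87 CPM at the low end (below 0.25). In colony 3 it was 0.602, 1.26 and 2.34 CPM at the high end, against 0.318, 0.784 and 2.53 CPM at the low end. In colony 4 it was 2.16, 4.86 and 7.77 CPM at the high end, against 1.10, 2.41 and 4.70 CPM at the low end. The ends overlapped in each colony, and the median was higher at the high end in all 3. Colony 3 stands apart low for this gene model, with its high end below the low ends of the other colonies in the median.

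evm.model.ctg81.20 fell most with maturity, by 1.01 ± 0.24 log2 (SE; edgeR adjusted p = 0.000126), and by 0.93 ± 0.23 without the ant with the highest value. In colony 2 it had 0.0635, 1.08 and 14.2 CPM at the high end, against 0.442, 2.72 and 17.9 CPM at the low end. In colony 3 it had 0, 0.411 and 1.16 CPM at the high end, against 0.0499, 0.908 and 5.67 CPM at the low end. In colony 4 it had 0.25, 1.88 and 3.83 CPM at the high end, against 0.111, 2.65 and 31.4 CPM at the low end. The ends overlapped widely, and the median was lower at the high end in all 3 colonies. Its slope on age was -0.36 ± 0.11 log2 (edgeR adjusted p = 0.00371), which was not called with maturity in the model (adjusted p = 0.896).

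The next slopes on maturity were those of evm.model.ctg21.85, at 0.83 ± 0.15 log2 (SE; edgeR adjusted p = 9.27e-07), and evm.model.ctg129.24, at -0.51 ± 0.19 log2 (edgeR adjusted p = 0.017). In the fit over all colonies the call of the second rested on ant 007, a low-maturity ant at 28.4 CPM. The other ants of its colony were near 0. Without ant 007 the slope was -0.18 ± 0.09 log2 (edgeR adjusted p = 0.0935) and was not called. In colony 4 fitted alone, evm.model.ctg129.24 was called falling, at -0.23 ± 0.07 log2 (edgeR adjusted p = 0.00833). In colony 2 alone it was not called, at -0.12 ± 0.15 log2 (edgeR adjusted p = 0.61). With age in the model, evm.model.ctg21.85 was not called for maturity, at 0.37 ± 0.22 log2 (adjusted p = 0.272).

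evm.model.ctg236.28 had a lowest, median and highest value of 0.0683, 1.36 and 3.41 CPM in colony 4, against 0.0723, 0.660 and 2.27 CPM in colony 2 and 0, 0.301 and 1.61 CPM in colony 3. Its neighbour evm.model.ctg236.27 was lowest in colony 3, with 0.0524, 0.857 and 3.43 CPM, against 0.289, 1.80 and 4.00 CPM in colony 2 and 0.829, 3.45 and 7.34 CPM in colony 4. Both neighbours had the order colony 4, colony 2, colony 3, and fell into different groups by the size of the gaps. With age, the neighbours evm.model.ctg236.28 and evm.model.ctg236.27 rose most, by 0.46 ± 0.06 and 0.42 ± 0.05 log2 over 12 months (SE, edgeR adjusted p = 5.78e-12 and 7.74e-16). evm.model.ctg211.6 fell most, by 0.43 ± 0.13 log2 (SE; edgeR adjusted p = 0.00336), but limma-voom gave -0.02 ± 0.12 log2 (adjusted p = 0.891), and without colony 2 the fall was not called.

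evm.model.ctg164.28 was off in colony 2, with 0, 0.0816 and 11.8 CPM, against 0, 3.20 and 25.8 CPM in colony 3 and 0, 3.32 and 9.36 CPM in colony 4. Its neighbour evm.model.ctg164.27 had 0, 0 and 4.07 CPM in colony 2, against 0, 1.13 and 8.79 CPM in colony 3 and 0, 1.21 and 5.26 CPM in colony 4. In colony 3 both had 2 levels, with 47 and 48 high ants of which 47 were shared. With body length, evm.model.ctg164.28 and evm.model.ctg164.27 rose by 0.38 ± 0.11 and 0.33 ± 0.11 log2 per unit (SE; edgeR adjusted p = 0.00383 and 0.0171). evm.model.ctg47.8 fell by 0.39 ± 0.10 log2 (SE; edgeR adjusted p = 0.00103). It was the 1 member called falling with all labelled ants, and 3 were called falling without ant 007 or with limma-voom. With limma-voom the slopes of the pair on ctg164 were not called (adjusted p = 0.0601 and 0.0605). None of these 3 was called without colony 2, where evm.model.ctg164.27 and evm.model.ctg164.28 were on in 5 of 90 ants and evm.model.ctg47.8 in 12.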

How the data were processed

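The table deposited by the authors holds raw counts of reads for each of 14664 gene models in 299 ants (90, 104 and 105 of colonies 2, 3 and 4). STAR and featureCounts made them, per the submitters' processing notes; their versions, the build, the annotation and whether strand was used are not given in the sources used here. Libraries were made with a stranded mRNA kit, per the labels' protocols. Reads of overlapping gene models could therefore not be assigned with certainty. Caution also holds for near-identical copies, whose reads were not examined here.

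CPM is the count over the column sum times 1e+06. Colony medians, groups, neighbours and on and off counts are descriptions. Members, lists and tests were chosen with earlier results of these data known. The naming rule took the 2 members with the largest ratio per group, the 2 rising and 2 falling with the largest called slopes per test, the contig with the most members, adjacent pairs and the 2 members nearest an even split in a colony with a median of at least 1 CPM.

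Slopes came from edgeR 4.0.16 (R 4.3.3) quasi-likelihood F-tests with robust dispersion, TMM and filterByExpr, with colony as covariate, on the 289 labelled ants (87, 98 and 104 in colonies 2, 3 and 4), adjusted by Benjamini-Hochberg over 10457 gene models. Standard errors follow from the slope and its F statistic. The models were tested on simulated data. Alternatives used limma 3.58.1, DESeq2 1.42.0, other filters, covariates, colonies left out and the ant number as a block. Python 3.11.15 made the descriptions. The identifiers could not be matched to sequences here, so none are shown.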

Additional observations from a re-analysis of the deposited data

How the results depend on the processing

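Counts of called members changed by over 1.5 times under these settings. With ant number as a replicate block, fitted by limma-voom, 21 members were called for maturity in place of 41, where 35.2% of all gene models were called, and 26 for age in place of 43, where 32.2% of all were called. With age in the model 9 were called for maturity (18.6% of all), and with oriented maturity in the model 6 for age (7.97% of all). Without colony 2, 3 of 96 tested were called for body length in place of 10 (13.0% of all). With no filter on low counts, 22 of 100 were called in colony 3 alone in place of 13 of 73 (23.5% of all). The cause was not tested. The numbers do not pair the ants: over 210 pairs of ants with the same number in different colonies, the median correlation of their deviations was 0.01, 61 exceeded 0.1, and 2 of 273 ants correlated best with their own number.

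With a highest median of at least 5 CPM, 55 of the 100 members were chosen again, since fewer gene models pass. The other settings of the rule chose 73 to 100 again. Full parting of the colonies held for 3 members, where it held for 0.0529% of all kept gene models. Without ant 007 it held for 14, where it held for 0.212% of all. With up to 1 ant left out on each side it held for 17. The share of all was not counted for that setting, so nothing is read from the 17. Members mixed within an on colony, with at least 5% of ants off, numbered 9, and 5 where off meant no read and 4 with at least 10% off. No result reversed. Of the alternatives of single named slopes, 19 lost the call. At a median of 38.3 M reads, levels under 0.1 CPM rest on a few reads and cannot tell absence from very low expression.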
